A study of Homo sapiens with 9 samples.

Results

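The genes described here encode the proteins of tight junctions, desmosomes and gap junctions in HT29, an established line of human colorectal cancer cells. They were taken by symbol from the deposited count table: the numbered claudins, the TJP scaffolds, the desmocollins, desmogleins and plakophilins, the connexins of the GJA, GJB and GJC groups, and OCLN, MARVELD2, MARVELD3, F11R, CGN, DSP and JUP. This gave 62 of 25886 symbols. RNA was sequenced after removal of rRNA in 3 libraries each of DNMT1 knockdown, DNMT3B knockdown and Control cells. All 3 groups had been selected with puromycin, the knockdowns were stable and made with lentiviruses, and the column names of the table write the groups as shDNMT1, shDNMT3B and shCTR. The labels do not give the number of hairpins or clones behind a group. They also do not say if the 3 libraries of a group are separate cultures: the p-values rest on the differences among libraries alone, and these may be technical. The design text asks what follows when DNMT1, which maintains DNA methylation after replication, or DNMT3B, which can methylate unmarked DNA, is depleted.

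Epithelial cells are joined side by side by several kinds of contact. Tight junctions seal the space between cells: claudins and the MARVEL proteins occludin and tricellulin form strands in the membrane, and TJP scaffolds tie the strands to actin. Desmosomes are spot welds in which desmogleins and desmocollins bridge adjacent cells, and plakoglobin, plakophilins and desmoplakin anchor them to keratin filaments. Gap junctions are channels made of connexins that let ions and small molecules pass between cells. In colon, the claudin repertoire sets how tight or leaky the epithelium is to ions.

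Libraries held 18772187 to 33666224 counts, and the Control libraries were the deepest as a group. DNMT1 stood at 252 CPM (counts-per-million, scaled to library size) in DNMT1 knockdown and 458 CPM in Control, and DNMT3B at 30.5 CPM in DNMT3B knockdown and 61.3 CPM in Control (exact two-sided permutation p = 0.1 for each, the smallest that 3 against 3 libraries can give). Of 10 markers of colorectal epithelium, VIL1, CDX1 and LGALS4 were below 1 CPM in every group mean, while EPCAM averaged 249, 235 and 285 CPM in DNMT1 knockdown, DNMT3B knockdown and Control. The summed level of 6 leukocyte markers was 18.4 to 19.6 CPM in DNMT1 knockdown, 31.2 to 36.2 CPM in DNMT3B knockdown and 18 to 19.2 CPM in Control. Nearly all of it was CD68, a lysosomal protein, and the defining leukocyte gene PTPRC averaged 0.056, 0.148 and 0.101 CPM in the same order. The sum of 7 stromal markers was 23.5 to 28.4, 32.5 to 33.8 and 20.7 to 25.6 CPM, with COL1A2 and DCN at 0 counts throughout. Squamous markers summed to 14.7 to 15.1, 15 to 16.2 and 14.6 to 15.9 CPM, nearly all from KRT10, with KRT1 at 0 counts. The part of these markers in the results was not tested.

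The junction genes with the highest levels per kb of merged exons in these cells were desmosomal. Per kilobase of exon, the desmosomal and adherens junction protein plakoglobin (JUP) led at 88.9 ± 1.95 CPM per kb in Control (SD, n = 3), followed by desmoplakin (DSP) at 53.7 ± 1.5, the claudin CLDN7 at 51.0 ± 1.03, the desmoglein DSG2 at 45.3 ± 1.26 and the plakophilin PKP3 at 36.9 ± 1.69 CPM per kb. The Control libraries of these 5 genes did not overlap with those of the next gene in the order. CLDN4 (23.9) and the scaffold TJP1 (23.0) came further down, and their ranges overlapped. The lengths merge the exons of all annotated transcripts of a gene (4702 bases for CLDN4), so the order depends on that choice. JUP and DSP held the first and second place in both knockdowns as well.

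Within each family, expression was concentrated in a few members. CLDN7 supplied 45.3% ± 0.343 of the summed claudin level per kb in Control and CLDN4 a further 21.2% ± 0.349. These shares depend on the merged exon lengths, 2492 bases for CLDN7 and 4702 for CLDN4. Without division by length, CLDN7 averaged 127 CPM and CLDN4 112 CPM in Control. Both are claudins of colon and other simple epithelia. CLDN3 stood at 10.4 CPM per kb and CLDN15, a pore-forming claudin of the intestine, at 9.35. Another pore-forming claudin, CLDN2, was lower at 1.65 CPM per kb, and CLDN1, a barrier claudin, had only 21 counts over all 9 libraries. Among the connexins GJB2 stood at 12.5 CPM per kb and GJC1 at 10.4 CPM per kb in Control. Their order depends on the merged exon lengths, 2546 bases for GJB2 and 8660 for GJC1. Not divided by length, GJB2 averaged 31.9 CPM and GJC1 90.3 CPM in Control. GJA1, the widely expressed heart and fibroblast connexin, was at 0.0615 ± 0.0147 CPM per kb. The skin desmosomal cadherins DSG1, DSG3 and DSC1 had 64, 9 and 41 counts in all.

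**Figure D1:**
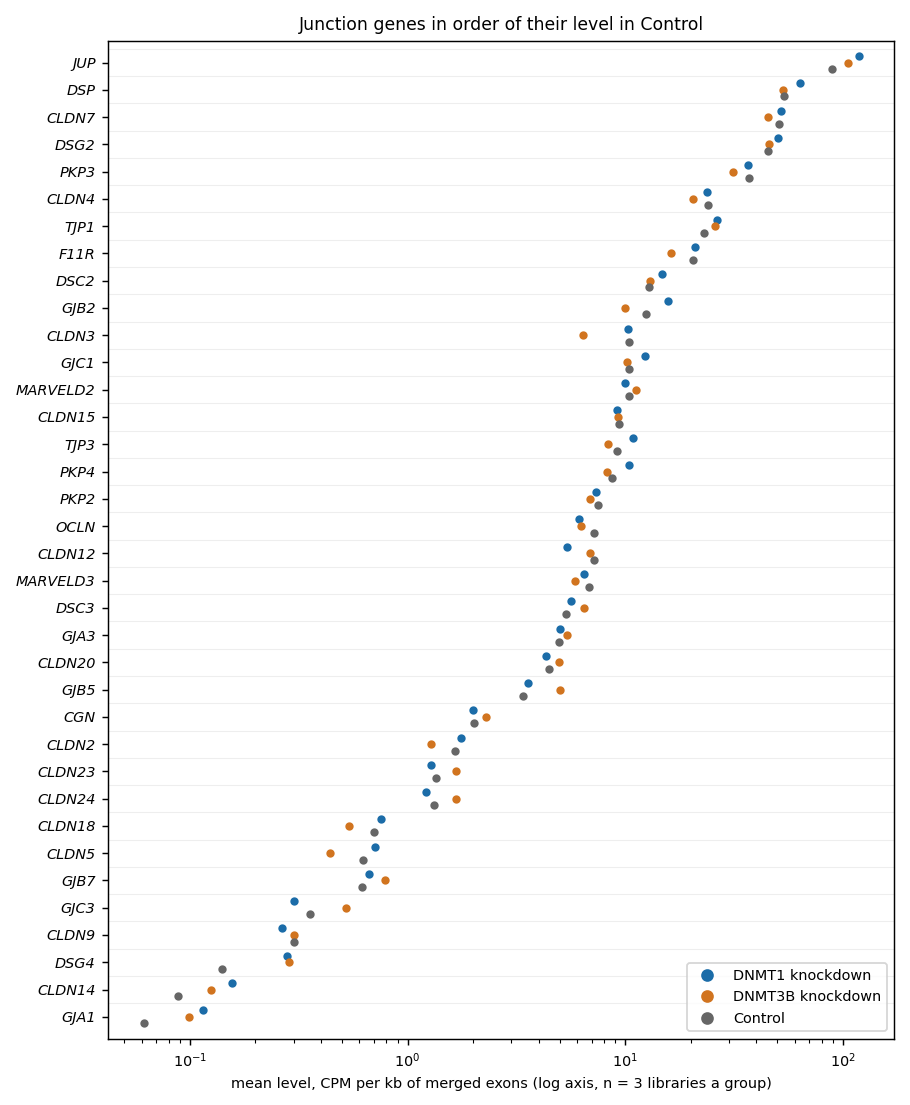
Mean level of tested junction genes in CPM per kb of merged exons on a log axis, for DNMT1 knockdown, DNMT3B knockdown and Control (3 libraries each), in the order of their Control level. JUP is at the top at 88.9 CPM per kb in Control and GJA1 at the bottom at 0.0615, and the groups lie close together beside that range.

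Of the 62 genes, 40 had enough counts to be tested. Of the other 22, 7 had no count in any library, among them CLDN8, CLDN17, CLDN22, CLDN25, GJA9 and GJB1. Finding none leaves room for at most 3 counts in a library, or 0.0891 to 0.16 CPM at these depths (counting error only). In the GRCh38 annotation all exon bases of CLDN22 lie within exons of WWC2 on the opposite strand and 92.3% of those of GJA9 within the readthrough gene GJA9-MYCBP, so a 0 there can also come from how shared reads were counted. The remaining 15 had at most 12 counts in a library. With no low-count filter, 2 of these genes were called: DSG1, a desmoglein of skin, was then called higher in DNMT3B knockdown than in Control (log2 fold change 1.32, adjusted p = 0.0164), and CLDN19 lower in DNMT1 than in DNMT3B knockdown (-1.87, adjusted p = 0.0122). DSG1 had 10, 7 and 12 counts in DNMT3B knockdown libraries and 7, 3 and 5 in Control libraries.

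Against Control, 6 of 9 tested desmosomal genes rose with DNMT1 knockdown, where 21% of all genes were higher. With DNMT3B knockdown 6 of 13 tested claudins fell, where 24.6% of all genes were lower. Of the 5 other tight junction membrane and plaque genes, 3 fell and 2 rose with DNMT3B knockdown. With DNMT1 knockdown 11 of the 40 tested genes rose and 3 fell (35% called, against 41.8% of all 16660 genes tested, by edgeR's quasi-likelihood test at a Benjamini-Hochberg adjusted p below 0.05). With DNMT3B knockdown 8 rose and 13 fell (52.5% called, against 47.7% of all genes, of which 23.1% were higher). Both shares are near those of all genes, so the number of calls sets the junction genes apart in neither knockdown. Libraries of the groups did not overlap for 49.4% of all genes with DNMT1 knockdown and 54.1% with DNMT3B knockdown, so a separation of 3 libraries from 3 was common. Called changes of at least 1.5-fold were few, as they were among all genes. They numbered 1 of the 40 tested genes with DNMT1 knockdown and 3 of 40 with DNMT3B knockdown, against 5.57% and 7.52% of all genes. In bulk RNA, fewer cells of a type and less RNA per cell cannot be told apart.

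**Figure D2:**
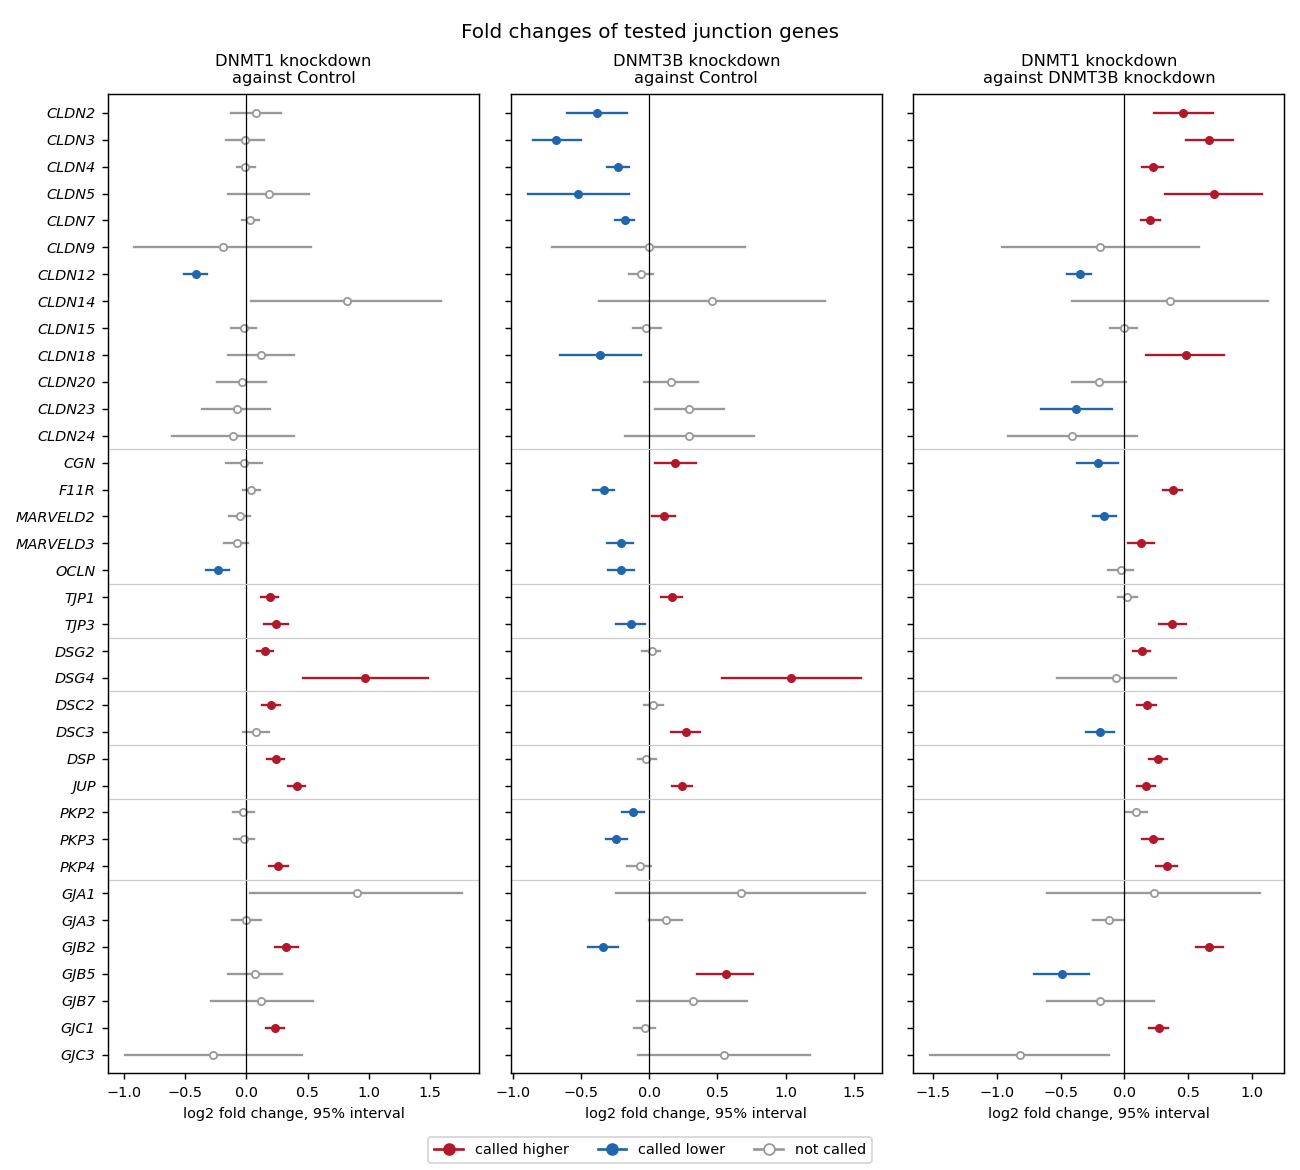
Log2 fold changes of tested junction genes with 95% intervals in 3 comparisons, grouped from top to bottom as claudins, other tight junction membrane and plaque proteins, TJP scaffolds, desmogleins, desmocollins, DSP and JUP, plakophilins and connexins. Filled red and blue points are called higher and lower. Of 13 claudins, 1 is called lower in DNMT1 knockdown and 6 in DNMT3B knockdown, and the desmosomal genes of DNMT1 knockdown lie at or above -0.03.

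Of the 13 tested claudins, 6 fell with DNMT3B knockdown and 7 were not called (median log2 fold change -0.06), where 24.6% of all genes were lower. CLDN3, a sealing claudin, showed the largest called fall of the family. It was at 9.53, 6.95 and 8.04 CPM in DNMT3B knockdown libraries and at 13.4, 12.6 and 13.6 CPM in Control libraries (log2 fold change -0.68 ± 0.0864, SE, 1.6-fold lower, adjusted p = 9.56e-08). Every DNMT3B knockdown library lay below every Control library. In DNMT1 knockdown libraries CLDN3 was at 12.2, 13.0 and 14.1 CPM, across the Control range (log2 fold change -0.01, 95% interval -0.17 to 0.14, adjusted p = 0.898).

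CLDN4 lies beside CLDN3 on chromosome 7 (CLDN3 73768997 to 73770270, minus strand; CLDN4 73799542 to 73832693, plus strand, GRCh38). It is known as a claudin that limits sodium passage. CLDN4 was at 92.1, 98.8 and 96.6 CPM in DNMT3B knockdown and at 111, 109 and 117 CPM in Control (log2 fold change -0.23 ± 0.0378, adjusted p = 7.24e-06). Its DNMT1 knockdown libraries were at 114, 111 and 110 CPM, within the spread of Control (adjusted p = 0.865). CLDN7, on chromosome 17, was at 110, 117 and 111 CPM in DNMT3B knockdown and at 125, 126 and 130 CPM in Control (-0.18 ± 0.035, adjusted p = 9.67e-05). Again no library of one group reached the other. A gene annotated on the same strand, AC003688.1, shares 10.8% of the exon bases of CLDN7. Summed per kb, CLDN3, CLDN4 and CLDN7 gave 72.0 ± 1.22 CPM per kb in DNMT3B knockdown, 86.1 ± 0.779 in DNMT1 knockdown and 85.2 ± 2.2 in Control (SD, n = 3 each). CLDN7 kept a similar share of all claudins, 45.5% ± 0.549 in DNMT3B knockdown and 45.3% ± 0.343 in Control.

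The 250 bases before the RefSeq start site are shown for CLDN3 and CLDN4, neighbours that fell together with DNMT3B knockdown, and for CLDN12, the claudin that fell with DNMT1 knockdown. All are on chromosome 7 of GRCh38.p14: chr7:73770271-73770520 (minus strand), chr7:73830746-73830995 (plus strand) and chr7:90403211-90403460 (plus strand). Capitals mark CG, the dinucleotide that DNMT1 and DNMT3B methylate.
CLDN3: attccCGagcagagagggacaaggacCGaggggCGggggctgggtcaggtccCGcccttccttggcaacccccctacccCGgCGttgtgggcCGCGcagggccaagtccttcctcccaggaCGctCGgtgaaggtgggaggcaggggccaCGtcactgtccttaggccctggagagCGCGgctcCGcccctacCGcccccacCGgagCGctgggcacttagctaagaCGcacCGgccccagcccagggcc
CLDN4: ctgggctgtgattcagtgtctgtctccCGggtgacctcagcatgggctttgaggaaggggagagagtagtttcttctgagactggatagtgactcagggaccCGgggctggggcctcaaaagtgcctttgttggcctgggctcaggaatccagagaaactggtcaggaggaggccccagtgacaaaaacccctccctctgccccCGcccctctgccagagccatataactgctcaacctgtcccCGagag
CLDN12: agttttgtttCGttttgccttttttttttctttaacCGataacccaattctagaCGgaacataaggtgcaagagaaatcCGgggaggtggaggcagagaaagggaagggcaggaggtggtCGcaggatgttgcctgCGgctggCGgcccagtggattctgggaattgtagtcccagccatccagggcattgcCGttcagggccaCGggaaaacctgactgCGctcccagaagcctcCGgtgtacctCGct
The windows hold 19, 4 and 12 CG in that order. Of 35116 RefSeq windows of the same length, 67.6%, 34.3% and 53.4% hold as many or fewer. The 2 neighbours that fell together thus differ in CG content. Methylation was not measured in these libraries.

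The other claudins that fell with DNMT3B knockdown were scarcer. CLDN2, a cation pore, was at 4.26, 4.58 and 4.21 CPM in DNMT3B knockdown, below all Control libraries at 5.88, 5.14 and 5.84 CPM (log2 fold change -0.38 ± 0.108, adjusted p = 0.00388). Its exons overlap those of RIPPLY1 on the opposite strand over 10.0% of their length, and the use of strand in counting is not given in the sources used here. CLDN5, best known from endothelium, was at 1.43, 1.67 and 1.42 CPM in DNMT3B knockdown and at 1.97, 1.94 and 2.5 CPM in Control (-0.52 ± 0.183, adjusted p = 0.0188). The sum of 5 endothelial markers, CLDN5 among them, was 5.56 to 6.46 CPM in DNMT3B knockdown, 3.71 to 5.11 in DNMT1 knockdown and 4.65 to 5.36 in Control. CLDN18, the stomach and lung claudin, was at 2.29, 1.83 and 2.15 CPM in DNMT3B knockdown and at 2.68, 2.64 and 2.79 CPM in Control (-0.36 ± 0.144, adjusted p = 0.0401). The calls of these last 2 rest on few counts. CLDN5 lost its call without DNMT3B knockdown replicate 1 (-0.49, adjusted p = 0.0583) or 3 (-0.47, 0.0748) or Control replicate 3 (-0.39, 0.126), and CLDN18 without DNMT3B knockdown replicate 2 (-0.29, 0.146) or 3 (-0.37, 0.0817) or any Control library (replicate 1, -0.36, 0.0719; replicate 2, -0.37, 0.0555; replicate 3, -0.33, 0.0997), and both lost it in DESeq2 (adjusted p = 0.0832 and 0.157).

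With DNMT1 knockdown CLDN12 was the only tested claudin called, at a background of 20.8% of all genes lower. It is an unusual claudin that lacks the scaffold-binding tail of its relatives. It stood at 36.9, 36.3 and 35.7 CPM in DNMT1 knockdown libraries, well below the Control libraries at 50.9, 47.7 and 46.4 CPM (log2 fold change -0.41 ± 0.0454, 1.33-fold lower, adjusted p = 7.49e-09). In DNMT3B knockdown it was at 45.7, 46.5 and 47.1 CPM, overlapping Control (adjusted p = 0.28). On the same strand its exons share 5.5% of their bases with AC006153.1, 5.1% with GTPBP10, 4.1% with AC002456.2 and 3.0% with CDK14.

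Of the remaining tested claudins, CLDN15, CLDN20, CLDN23, CLDN24, CLDN9 and CLDN14 were called against Control in neither knockdown. CLDN15, an intestinal cation pore, was at 26.6 ± 0.139, 26.8 ± 1.16 and 27.1 ± 0.428 CPM in DNMT1 knockdown, DNMT3B knockdown and Control, with intervals of -0.13 to 0.08 and -0.12 to 0.09 for the log2 fold changes. CLDN14 had 6 to 15 counts in a library and was at 0.82 (interval 0.04 to 1.59, adjusted p = 0.0831) with DNMT1 knockdown. Without DNMT1 knockdown replicate 2 it was called (1.09, adjusted p = 0.0285). CLDN23 was at 3.59 ± 0.189 CPM in DNMT3B knockdown and 2.94 ± 0.0685 CPM in Control (adjusted p = 0.056), and was called at 0.30 without DNMT1 knockdown replicate 1 (adjusted p = 0.0498) or 2 (0.048).

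Among the other tight junction membrane proteins, occludin fell in both knockdowns. OCLN (chromosome 5, 69492292 to 69558104) was at 43.6, 38.2 and 42.0 CPM in DNMT1 knockdown, 40.5, 43.5 and 42.6 CPM in DNMT3B knockdown and 48.9, 48.2 and 48.6 CPM in Control. All 6 knockdown libraries lay below the 3 Control libraries, and the knockdowns overlapped each other. The log2 fold changes were -0.23 ± 0.0467 with DNMT1 knockdown (adjusted p = 0.000136) and -0.21 ± 0.0469 with DNMT3B knockdown (adjusted p = 0.000508). Both comparisons use the same Control libraries. OCLN was the only 1 of the 40 tested genes that was lower in both, where 10.7% of all genes were.

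F11R, which encodes junctional adhesion molecule A, fell with DNMT3B knockdown. It was at 80.4, 82.5 and 83.4 CPM there and at 104, 104 and 103 CPM in Control, a clear separation (-0.33 ± 0.0365, 1.26-fold lower, adjusted p = 4.94e-09). With DNMT1 knockdown it was at 105, 111 and 104 CPM (adjusted p = 0.364). A gene annotated on the same strand, AL591806.3, shares 36.6% of the exon bases of F11R. MARVELD3 also fell with DNMT3B knockdown, to 38.6, 35.4 and 39.6 CPM, against 42.2, 44.2 and 46.0 CPM in Control (-0.21 ± 0.0478, adjusted p = 0.000423), and PHLPP2 covers 16.6% of its exon bases on the opposite strand. It was at 41.7 ± 0.496 CPM in DNMT1 knockdown (adjusted p = 0.166).

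MARVELD2, tricellulin of the contacts where several cells meet, and CGN, the actin-linked plaque protein cingulin, were called higher with DNMT3B knockdown, by small margins. MARVELD2 was at 59.7, 60.5 and 60.3 CPM in DNMT3B knockdown and at 56.5, 55.5 and 55.6 CPM in Control (0.11 ± 0.0422, adjusted p = 0.0372). CGN was at 16.9, 13.6 and 14.8 CPM in DNMT3B knockdown and at 12.3, 13.7 and 14.2 CPM in Control, groups that overlap (0.19 ± 0.0741, adjusted p = 0.0353). CGN lost its call without DNMT3B knockdown replicate 1 (0.10, adjusted p = 0.315) or Control replicate 1 (0.13, 0.195). MARVELD2 lost its call without any 1 of the DNMT3B knockdown libraries (replicate 1, 0.12, 0.0518; replicate 2, 0.11, 0.0679; replicate 3, 0.11, 0.0821), without Control replicate 2 (0.11, 0.0686) or 3 (0.11, 0.0787), and DESeq2 called neither (adjusted p = 0.1 for MARVELD2 and 0.124 for CGN).

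The scaffolds TJP1 and TJP3 were called higher with DNMT1 knockdown, where 21% of all genes were higher. TJP1 (chromosome 15, 29699367 to 29968865), the first scaffold identified at tight junctions, was at 304, 283 and 302 CPM in DNMT1 knockdown, 304, 284 and 286 CPM in DNMT3B knockdown and 260, 267 and 253 CPM in Control. It rose in both knockdowns (0.19 ± 0.0357, adjusted p = 6.17e-05, and 0.17 ± 0.0358, adjusted p = 0.000261), and every knockdown library lay above Control. TJP3, a scaffold of epithelial cells, went opposite ways. It was at 42.2, 48.3 and 46.5 CPM in DNMT1 knockdown, 37.4, 34.5 and 33.6 CPM in DNMT3B knockdown and 38.8, 37.6 and 39.4 CPM in Control. The rise with DNMT1 knockdown was 0.24 ± 0.0499 (adjusted p = 0.000221) and the fall with DNMT3B knockdown -0.13 ± 0.0521 (adjusted p = 0.0334).

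The weaker of these calls depends on single libraries. The fall of TJP3 was no longer called without DNMT3B knockdown replicate 2 (-0.12, adjusted p = 0.0948) or 3 (-0.09, 0.216), without Control replicate 1 (-0.13, 0.0824) or 3 (-0.12, 0.116), or in DESeq2 (adjusted p = 0.0787).

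**Figure D3:**
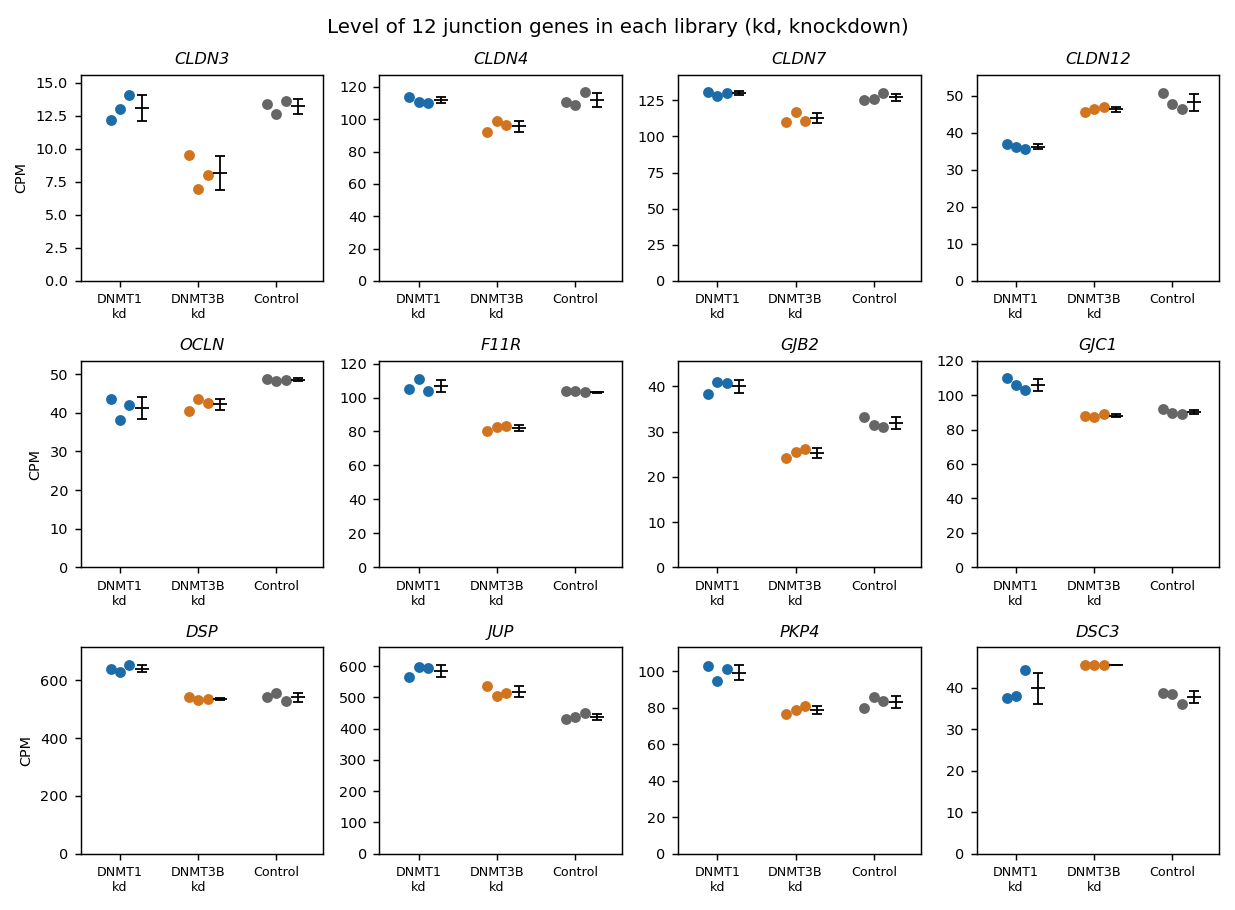
CPM of 12 junction genes in each library of DNMT1 knockdown, DNMT3B knockdown and Control, with the mean ± SD (n = 3) as bars beside the points and all axes starting at 0. CLDN3, CLDN4, CLDN7 and F11R sit lowest in DNMT3B knockdown, CLDN12 lowest in DNMT1 knockdown, and JUP, DSP and GJC1 highest in DNMT1 knockdown.

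Of the 9 tested desmosomal genes, 6 rose with DNMT1 knockdown and 3 were not called, where 21% of all genes were higher. Their median log2 fold change was 0.2 (0 over all genes tested). Summed per kb over all 13, they gave 307 ± 4.16 CPM per kb in DNMT1 knockdown, 270 ± 2.9 in DNMT3B knockdown and 259 ± 0.803 in Control (SD, n = 3 each). JUP, whose product plakoglobin also binds classical cadherins, moved most among the abundant ones. It was at 565, 597 and 593 CPM in DNMT1 knockdown, 538, 505 and 514 CPM in DNMT3B knockdown and 430, 438 and 449 CPM in Control. The groups were fully separated, in the order DNMT1 knockdown, DNMT3B knockdown, Control. JUP rose by 0.41 ± 0.0341 with DNMT1 knockdown (1.33-fold, adjusted p = 1.58e-11) and by 0.24 ± 0.0342 with DNMT3B knockdown (1.18-fold, adjusted p = 6.15e-07).

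Desmoplakin, the keratin anchor, rose with DNMT1 knockdown. DSP was at 639, 629 and 655 CPM there, 541, 532 and 534 CPM in DNMT3B knockdown and 542, 558 and 528 CPM in Control. DNMT1 knockdown stood above Control (0.24 ± 0.0325, adjusted p = 3.91e-07), and DNMT3B knockdown overlapped it (-0.02, interval -0.08 to 0.05, adjusted p = 0.673). For each DSP count there were 0.913 ± 0.0335 JUP counts in DNMT1 knockdown, 0.969 ± 0.0232 in DNMT3B knockdown and 0.81 ± 0.0363 in Control. The plakophilin PKP4, which is also found at adherens junctions, behaved like DSP. It was at 103, 94.5 and 101 CPM in DNMT1 knockdown, 76.7, 78.9 and 81.0 CPM in DNMT3B knockdown and 79.8, 86.1 and 83.5 CPM in Control (0.26 ± 0.0393, adjusted p = 3.15e-06, with DNMT1 knockdown; -0.07, adjusted p = 0.131, with DNMT3B knockdown).

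PKP3 and PKP2, the other plakophilins these cells express, were called lower with DNMT3B knockdown. PKP3, a plakophilin that binds most desmosomal cadherins, was at 117, 123 and 117 CPM in DNMT3B knockdown and at 138, 134 and 147 CPM in Control (-0.24 ± 0.0395, adjusted p = 9.16e-06). PKP2, which is needed in heart desmosomes too, was at 48.5, 48.3 and 48.7 CPM in DNMT3B knockdown and at 52.5, 54.2 and 51.6 CPM in Control (-0.12 ± 0.0409, adjusted p = 0.0148). The PKP2 call was lost without Control replicate 2 (-0.10, adjusted p = 0.0723). With DNMT1 knockdown PKP3 averaged 138 ± 6.94 CPM and PKP2 51.8 ± 0.45 CPM, and neither was called (adjusted p = 0.736 and 0.632).

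The desmosomal cadherins lie together on chromosome 18, and did not change as a block. DSC2 (31058840 to 31102522), the desmocollin of simple epithelia, was at 191, 180 and 182 CPM in DNMT1 knockdown and at 163, 163 and 154 CPM in Control (0.20 ± 0.0348, adjusted p = 1.75e-05), and at 163 ± 3.15 CPM in DNMT3B knockdown (adjusted p = 0.53). DSG2 (31498043 to 31549008), its desmoglein counterpart, was at 313, 310 and 312 CPM in DNMT1 knockdown and at 289, 277 and 274 CPM in Control (0.15 ± 0.0324, adjusted p = 0.000271), and at 284 ± 5.27 CPM in DNMT3B knockdown (adjusted p = 0.687). Both therefore rose with DNMT1 knockdown, without overlap with Control.

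DSC3 (30990008 to 31042815), next to DSC2 and better known from stratified epithelium, showed the other pattern. It was at 45.5, 45.5 and 45.5 CPM in DNMT3B knockdown and at 38.7, 38.4 and 36.1 CPM in Control (0.27 ± 0.0516, adjusted p = 6.49e-05), while DNMT1 knockdown libraries at 37.5, 37.9 and 44.1 CPM overlapped Control (0.08, interval -0.03 to 0.18, adjusted p = 0.244). The number of DSC2 counts per DSC3 count was 4.65 ± 0.489 in DNMT1 knockdown, 3.59 ± 0.0687 in DNMT3B knockdown and 4.24 ± 0.0378 in Control. DSG4, a hair follicle desmoglein, rose in both knockdowns at a level near the detection limit. It had 33, 21 and 40 counts in DNMT1 knockdown libraries, 38, 18 and 39 in DNMT3B knockdown and 27, 14 and 20 in the deeper Control libraries (0.97 ± 0.252, adjusted p = 0.00233, and 1.04 ± 0.252, adjusted p = 0.000967). JUP, TJP1 and DSG4 were the 3 tested junction genes (7.5%) that were higher in both knockdowns, as were 10.2% of all genes.

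The make-up of the connexins differed between the groups, while their sums overlapped. Over all 17, the summed level per kb was 59.8 ± 1.6 CPM per kb in DNMT1 knockdown, 61.6 ± 0.58 in DNMT3B knockdown and 60.1 ± 1.13 in Control (SD, n = 3 each). Of 10 tested connexins, 2 rose and 1 fell in each knockdown (30% called, against 41.8% of all genes with DNMT1 knockdown and 47.7% with DNMT3B knockdown). GJB2, mutated in inherited deafness, was called in opposite directions. It was at 38.4, 40.9 and 40.8 CPM in DNMT1 knockdown, 24.1, 25.6 and 26.2 CPM in DNMT3B knockdown and 33.3, 31.5 and 31.0 CPM in Control. The 3 groups did not overlap (0.32 ± 0.0486, adjusted p = 2.35e-06, with DNMT1 knockdown; -0.34 ± 0.0525, adjusted p = 2.65e-06, with DNMT3B knockdown). GJB2 and TJP3 were the 2 tested junction genes (5%) called in opposite directions, as were 4.78% of all genes.

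As a share of the summed connexin level per kb, GJB2 made up 26.3% ± 0.533 in DNMT1 knockdown, 16.1% ± 0.728 in DNMT3B knockdown and 20.9% ± 0.596 in Control, with no overlap between the groups. GJC1 made up 20.5% ± 1.07, 16.5% ± 0.277 and 17.3% ± 0.269 in the same order. The size of these shares depends on the merged exon lengths, 2546 bases for GJB2 and 8660 for GJC1.

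**Figure D4:**
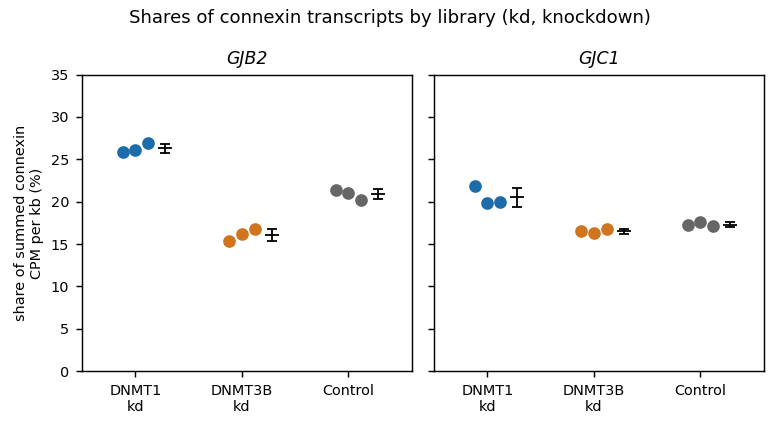
Share of the summed connexin level (CPM per kb over 17 genes) held by GJB2 and GJC1 in each library, with the mean ± SD (n = 3) beside the points. GJB2 holds 26.3% in DNMT1 knockdown, 16.1% in DNMT3B knockdown and 20.9% in Control, with no overlap between the groups.

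The 250 bases before the start of GJB2 (chr13:20192939-20193188, minus strand, GRCh38.p14) are shown because this gene was called in opposite directions, with CG in capitals.
GJB2: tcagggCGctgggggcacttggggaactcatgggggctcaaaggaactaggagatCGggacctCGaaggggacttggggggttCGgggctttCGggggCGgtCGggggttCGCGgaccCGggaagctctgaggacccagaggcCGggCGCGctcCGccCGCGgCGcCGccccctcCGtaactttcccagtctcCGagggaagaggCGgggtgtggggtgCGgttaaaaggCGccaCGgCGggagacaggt
This window holds 25 CG, and 80.4% of RefSeq windows hold as many or fewer. RefSeq windows were found for 42 of the 62 genes. The 38 windows of tested genes held a median of 15 CG and the 21 windows of untested genes a median of 3, against 11 over all windows. Several genes have more than 1 window, so these are not independent. The E-box CACCTG, bound by SNAI and ZEB repressors of epithelial genes, was searched on both strands and found in 12 of the 38 windows of tested genes (31.6%), against 17.5% of all windows. The palindrome AACCGGTT, bound by Grainyhead-like factors, was in 0 of the 38 and in 0.117% of all windows. Matches describe these letters only.

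GJC1, a connexin of heart and smooth muscle, rose with DNMT1 knockdown. It was at 110, 106 and 103 CPM there and at 91.8, 89.9 and 89.1 CPM in Control (0.23 ± 0.0356, adjusted p = 2.86e-06), with DNMT3B knockdown at 88.2 ± 0.683 CPM (adjusted p = 0.476). GJB5 (chromosome 1, 34755047 to 34758512), a connexin of skin and placenta, rose with DNMT3B knockdown. GJB5 was at 7.0, 6.52 and 6.78 CPM there and at 4.98, 4.06 and 4.69 CPM in Control (0.56 ± 0.101, 1.47-fold, adjusted p = 2.69e-05), and at 4.82 ± 0.367 CPM in DNMT1 knockdown (adjusted p = 0.657).

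The connexins GJA1, GJA3, GJB7 and GJC3 were called against Control in neither knockdown. GJA3, the lens connexin, averaged 26.0 ± 1.01, 28.3 ± 0.497 and 25.9 ± 2.69 CPM in DNMT1 knockdown, DNMT3B knockdown and Control, and was called higher in DNMT3B knockdown once Control replicate 1 was left out (0.21, adjusted p = 0.00491). GJA1 was called in DNMT1 knockdown without replicate 1 of that group (1.14, adjusted p = 0.0458) and GJB7 in DNMT3B knockdown without replicate 3 of that group (0.53, adjusted p = 0.0396).

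Set directly against each other, DNMT1 and DNMT3B knockdown differed in 25 of the 40 tested junction genes (62.5%, against 45.2% of all genes tested), of which 18 were higher with DNMT1 knockdown and 7 lower. Among all genes 24.3% were higher and 20.9% lower, and the libraries of the knockdowns did not overlap for 52.2%. CLDN3, CLDN5 and GJB2 differed at least 1.5-fold, as did 6.64% of all genes. Claudins were higher with DNMT1 knockdown in 6 of 13 cases: CLDN3 (0.66 ± 0.0899, 1.58-fold, adjusted p = 3.09e-07), CLDN5 (0.70), CLDN18 (0.48), CLDN2 (0.46), CLDN4 (0.22) and CLDN7 (0.20). CLDN12 (-0.35 ± 0.0472, adjusted p = 2.24e-07) and CLDN23 (-0.38, adjusted p = 0.0228) were lower. The 6 higher claudins are those that fell with DNMT3B knockdown against Control, and the direct comparison uses the same DNMT3B knockdown libraries. CLDN18 was no longer called without DNMT1 knockdown replicate 1 (0.41, adjusted p = 0.0507), nor CLDN23 without DNMT1 knockdown replicate 2 (-0.27, 0.139) or DNMT3B knockdown replicate 1 (-0.33, 0.0889). DESeq2 called neither CLDN18 (adjusted p = 0.0557) nor CLDN23 (0.101) here.

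Of the other tight junction genes F11R (0.38 ± 0.0371, 1.3-fold, adjusted p = 6.06e-10), TJP3 (0.37) and MARVELD3 (0.13) were higher with DNMT1 than with DNMT3B knockdown. MARVELD2 (-0.16) and CGN (-0.21) were lower. OCLN and TJP1, which moved alike in both, differed by -0.03 (interval -0.13 to 0.07) and 0.02 (interval -0.05 to 0.1). Of the 9 tested desmosomal genes 6 were higher, where 24.3% of all genes were, among them PKP4 (0.33 ± 0.0405, adjusted p = 4.54e-08), DSP (0.26) and PKP3 (0.22), and DSC3 was lower (-0.19 ± 0.0528, adjusted p = 0.00357). GJB2 was 1.58-fold higher with DNMT1 knockdown (0.66 ± 0.0525, adjusted p = 4.32e-12), and GJC1 was higher by 0.27. GJB5 (-0.49) was lower. MARVELD3 lost its call without any 1 DNMT1 knockdown library (replicate 1, 0.13, adjusted p = 0.0541; replicate 2, 0.12, 0.0826; replicate 3, 0.14, 0.052) or DNMT3B knockdown replicate 2 (0.09, 0.187). CGN lost it without DNMT1 knockdown replicate 1 (-0.19, adjusted p = 0.0769) or 3 (-0.20, 0.0631) or DNMT3B knockdown replicate 1 (-0.12, 0.257). DESeq2 called neither MARVELD3 (adjusted p = 0.0768) nor CGN (0.0794) in this comparison. GJC3, at -0.82 (adjusted p = 0.0513), gained a call without DNMT1 knockdown replicate 3 (-1.0, 0.0487) or DNMT3B knockdown replicate 2 (-0.96, 0.0373).

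Genes that work beside these junctions were counted in the same way, against 21% of all genes higher and 20.8% lower with DNMT1 knockdown and 23.1% higher and 24.6% lower with DNMT3B knockdown. Of 11 tested adherens junction genes, 7 rose and 1 fell with DNMT1 knockdown, and 4 rose and 4 fell with DNMT3B knockdown (72.7% called in each), with medians of 0.17 and 0.09. CTNNA1, the alpha-catenin that ties cadherins to actin, fell to 258 CPM in DNMT3B knockdown, against 444 CPM in Control (-0.78, adjusted p = 1.12e-18), and was at 452 CPM in DNMT1 knockdown. NECTIN3 and NECTIN1, immunoglobulin-like adhesion receptors, rose in both (0.67 and 0.42 with DNMT1 knockdown, 0.44 and 0.31 with DNMT3B knockdown). CDH1, E-cadherin, averaged 182 CPM in DNMT1 knockdown and 147 CPM in Control (0.31, adjusted p = 8.85e-09). With DNMT3B knockdown CDH1 rose less, to 163 CPM (0.15, adjusted p = 0.000439).

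Of the 10 plakins, keratins and other desmosome partners, 6 rose with DNMT1 knockdown and 4 were not called, and 6 rose and 2 fell with DNMT3B knockdown (medians 0.23 and 0.24). The shares called were 60% with DNMT1 knockdown, against 41.8% of all genes, and 80% with DNMT3B knockdown, against 47.7% of all genes. The plakin PPL, which links desmosomes to keratin, averaged 136 CPM in DNMT1 knockdown, 113 CPM in DNMT3B knockdown and 93.4 CPM in Control. The keratins KRT23 and KRT7 rose in both (0.62 and 0.99, then 0.71 and 1.10). Of 22 tight junction scaffold and polarity genes, 4 rose and 3 fell with DNMT1 knockdown (31.8% called, below the 41.8% of all genes) and 5 rose and 6 fell with DNMT3B knockdown (50%, near the 47.7% of all genes). MAGI1, a membrane-associated scaffold, rose with DNMT1 knockdown to 98.3 CPM, against 54.7 CPM in Control (0.85, adjusted p = 5.66e-17), and was at 51.0 CPM in DNMT3B knockdown. CGNL1, the paralogue of cingulin, fell with DNMT1 knockdown to 9.71 CPM, against 12.6 CPM in Control. In DNMT3B knockdown CGNL1 was at 12.8 CPM (adjusted p = 0.865). LLGL1, a polarity protein, rose by 0.19 with DNMT1 knockdown and by 0.25 with DNMT3B knockdown. With DNMT3B knockdown the cold shock domain protein YBX3, which binds TJP1, rose by 0.34 and PATJ, a polarity scaffold, fell by 0.22.

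Of 11 other junction membrane proteins, 4 rose and 3 fell in each knockdown (63.6% called, against 41.8% of all genes with DNMT1 knockdown and 47.7% with DNMT3B knockdown). EPCAM, an adhesion protein that binds CLDN7, fell by 0.19 with DNMT1 knockdown and by 0.28 with DNMT3B knockdown. ILDR2, an angulin relative, rose with DNMT3B knockdown to 18.7 CPM, against 10.6 CPM in Control. With DNMT1 knockdown ILDR2 fell to 8.57 CPM (-0.30, adjusted p = 0.00435). Of the 3 tested channel genes outside the GJA, GJB and GJC groups, the pannexins PANX1 and PANX2 fell with DNMT3B knockdown (-0.19 each; 24.6% of all genes were lower) and were not called with DNMT1 knockdown (adjusted p = 0.982 and 0.328). Of 18 epithelial transcription factors, 7 rose and 4 fell with DNMT1 knockdown (61.1% called, against 41.8% of all genes) and 8 rose and 5 fell with DNMT3B knockdown (72.2%, against 47.7% of all genes). They include GRHL3, a Grainyhead-like factor of surface epithelium, at 6.33 CPM in DNMT1 knockdown, 1.64 CPM in DNMT3B knockdown and 0.969 CPM in Control, and KLF4 and ELF3, factors of epithelial differentiation, which rose in both (1.16 and 0.74, then 0.93 and 0.78).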

How the data were processed

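The deposited file is 1 matrix of raw counts by gene symbol for 9 libraries, made by the authors. STAR, featureCounts, DESeq2 and GRCh38 (hg38) appear in the notes on processing, per the submitters' processing notes, with versions, settings, annotation and strand use not given in the sources used here, so values of overlapping genes are uncertain.

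Tests were run with edgeR 4.0.16 (R 4.3.3): filterByExpr by group (16660 genes), TMM, and the quasi-likelihood test over all 9 libraries (6 residual and 25.4 prior degrees of freedom), with Benjamini-Hochberg adjustment over all tested genes and calls at adjusted p below 0.05. Unless another test is named, adjusted p-values are edgeR's, the ± of a log2 fold change gives its SE, the ± of a level gives the SD (n = 3), and CPM are TMM-scaled. Levels between genes are per kb of merged exons (GENCODE, GRCh38, all 62 genes matched). Each pair of replicates differed beyond sampling noise (chi-square divided by its degrees of freedom, 1.75 to 3.52). The test was checked on simulated data.

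The members, companion lists and tests were chosen with earlier results of these data known. Any member could be named (some are not reported here, though counts and sums over the genes include them), and up to 3 called genes per companion list and comparison. Alternatives were DESeq2 1.42.0, DESeq2 size factors, other low-count filters, fits of only the groups compared, a replicate block and leaving out each library.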

Additional observations from a re-analysis of the deposited data

How the results depend on the processing

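Under every alternative run, the number of junction genes called stayed within 1.5 times the reported one. With each library left out in turn it was 13 to 15 for DNMT1 knockdown against Control (14 reported), 17 to 24 for DNMT3B knockdown against Control (21) and 22 to 25 for the direct comparison (25). DESeq2 called 13, 15 and 21. No call changed sign. Of 1807 repeats of a single gene's test, 48 lost a call and 12 gained one. The replicate numbers of the labels do not pair the libraries (correlation of deviations from the group means -0.06 to 0.04 for the same number, -0.04 to 0.06 for different numbers), and with the replicate block 14, 21 and 25 genes were called. Another scaling moved the median of all genes by at most 0.01 (log2). Depth limits the genes with few counts, such as CLDN14 and GJA1.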
